A study of Rattus norvegicus with 9 samples.

Results

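Genes of the voltage-gated sodium channel were examined in messenger RNA of the rat dorsal root ganglion (DRG), which holds the cell bodies of sensory neurons together with satellite glia and Schwann cells. The 9 genes were taken by symbol from the deposited count table of 30446 genes. Of these, 6 encode long alpha subunits (Scn1a, Scn7a, Scn8a, Scn9a, Scn10a and Scn11a) and 3 encode short beta subunits (Scn2b, Scn3b and Scn4b). All 9 passed the low-count filter and stood among the 16627 genes tested. Of the family's further genes in the table, Scn2a, Scn3a and Scn4a, which encode alpha subunits, are described after them.

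The 9 libraries formed 3 groups of 3. These were rats with a spinal cord injury (SCI), rats with a sham operation and naive rats, all male Sprague-Dawley animals with a label of 30 days after injury. Each library was made from ganglia of both sides, the thoracic levels T12 and T13 and the lumbar levels L1 to L6. The labels give neither the level nor the kind of cord injury. They also leave unsaid how many animals went into each library, so the p-values speak for the spread among the 9 libraries and not for a known number of animals.

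A sodium channel alpha subunit is a single long membrane chain that senses voltage and forms the pore by itself, and its opening carries the upstroke of the action potential. A beta subunit is a small protein that crosses the membrane once, carries an immunoglobulin domain outside the cell and tunes the gating and surface delivery of the alpha subunit it is attached to. In sensory ganglia, channels that tetrodotoxin blocks occur beside tetrodotoxin-resistant ones that are largely restricted to pain-sensing neurons.

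Library totals ran from 16724878 to 32060538 counts. The lowest count of any of the 9 genes in a library was 241, where counting error alone is 6.44%, and the highest was 27556. The square root of the common dispersion, which stands for the spread between libraries of a group, was 0.0805. Levels are given as CPM, the count relative to the TMM-scaled library size. CPM is not scaled to transcript length, so levels are compared for the same gene between groups and not between genes. Of 10 sensory neuron markers, all were detected, and their summed level was 33318 to 33700 CPM in SCI libraries, 29503 to 43787 CPM in sham libraries and 29584 to 30950 CPM in naive libraries. The oligodendrocyte markers Mog, Mobp, Olig2 and Opalin, of the neighbouring cord, summed to at most 6.89 CPM in any library, with Olig2 at no more than 1 count.

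All 6 alpha subunit genes were lower in SCI than in naive ganglia and lower in sham than in naive ganglia, and none was called between SCI and sham, by edgeR's quasi-likelihood test with Benjamini-Hochberg adjustment (adjusted p under 0.05). Over all genes tested, the test called 24.6% lower in SCI against naive, 25.9% lower in sham against naive and 0% in SCI against sham. The fitted log2 changes ran from -1.47 for Scn9a to -0.55 for Scn10a in SCI against naive, and from -1.43 for Scn9a to -0.53 for Scn10a in sham against naive. Of the 3 beta subunit genes, none was called lower in either comparison, and Scn2b was called higher in SCI than in naive, where 23.9% of all genes were called higher. None of the beta genes was called in sham against naive, where 24.7% of all genes were called higher. Both comparisons use the same naive libraries and are not independent of each other.

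**Figure D1:**
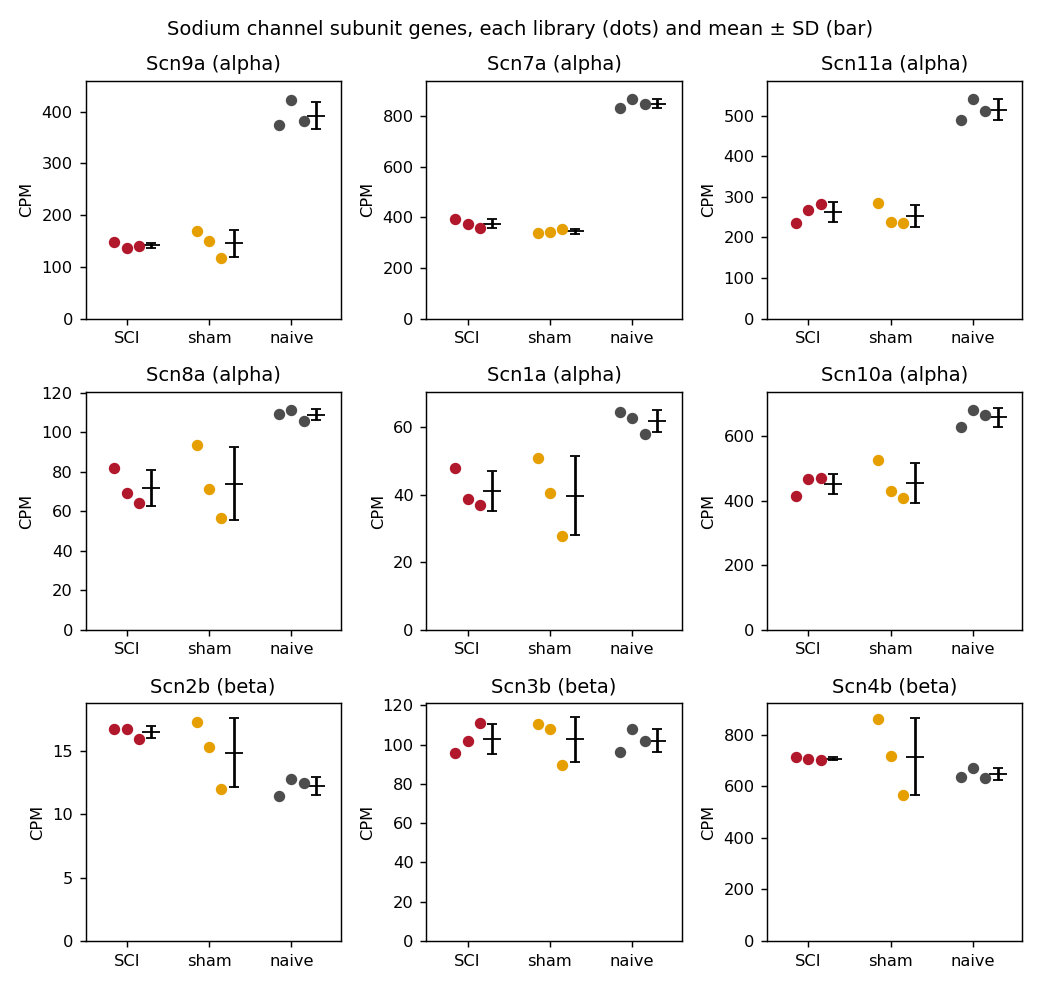
CPM of the 6 alpha and 3 beta subunit genes (y axis of each panel, starting at 0) in the SCI, sham and naive libraries; dots are libraries and bars the mean ± SD of 3. For every alpha gene all 3 naive libraries lie above all SCI and sham libraries, whereas Scn3b overlaps in all 3 groups.

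Among the alpha genes of pain-sensing neurons, Scn9a encodes Nav1.7, a tetrodotoxin-sensitive channel that amplifies small depolarizations and whose loss in humans abolishes pain. It had 148, 137 and 140 CPM in SCI libraries, 169, 150 and 117 CPM in sham libraries and 374, 422 and 381 CPM in naive libraries. The operated groups overlapped each other, and the highest of their libraries stood far below the lowest naive library. Fitted over all libraries, the log2 change was -1.47 in SCI against naive (SE 0.11, 95% interval -1.73 to -1.20, edgeR adjusted p = 8.74e-07), a level 2.77-fold lower in SCI. In sham against naive it was -1.43 (SE 0.11, edgeR adjusted p = 7.27e-07). Of all genes tested, 1.13% had a log2 change at or below that of Scn9a in SCI against naive, and 1.66% in sham against naive.

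Scn10a encodes Nav1.8, a tetrodotoxin-resistant channel that carries most of the action potential in nociceptors. Its levels were 415, 469 and 470 CPM in SCI libraries, 527, 431 and 409 CPM in sham libraries and 628, 683 and 666 CPM in naive libraries. The naive libraries were again above all others, with a smaller gap than for Scn9a. The gene fell by 0.55 on the log2 scale in SCI against naive (SE 0.09, edgeR adjusted p = 0.000401) and by 0.53 in sham against naive (SE 0.09, edgeR adjusted p = 0.000425). Both were the smallest falls among the 6 alpha genes in these fits.

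Scn11a encodes Nav1.9, a tetrodotoxin-resistant channel with a persistent current near the resting potential. It had 236, 268 and 283 CPM in SCI libraries, 285, 238 and 235 CPM in sham libraries and 490, 541 and 512 CPM in naive libraries. No operated library came near the lowest naive library. Its log2 change was -0.97 in SCI against naive (SE 0.09, edgeR adjusted p = 3.94e-06) and -1.02 in sham against naive (SE 0.09, edgeR adjusted p = 2.15e-06). Scn10a and Scn11a lie close to each other on rat chromosome 8 in RefSeq's GRCr8 gene order, with other loci between them.

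Scn8a encodes Nav1.6, the main channel of nodes of Ranvier and initial segments. Its levels were 81.7, 69.2 and 64.0 CPM in SCI libraries, 93.8, 71.4 and 56.8 CPM in sham libraries and 109, 111 and 106 CPM in naive libraries. The sham libraries were spread widely, and sham 1 came closest to the naive range without reaching it. On the log2 scale Scn8a changed by -0.60 in SCI against naive (SE 0.14, edgeR adjusted p = 0.00297) and -0.55 in sham against naive (SE 0.14, edgeR adjusted p = 0.00481).

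Scn1a encodes Nav1.1, a tetrodotoxin-sensitive channel found mainly in larger sensory neurons. It stood at 47.9, 38.6 and 36.8 CPM in SCI libraries, 50.8, 40.6 and 27.7 CPM in sham libraries and 64.4, 62.8 and 58.0 CPM in naive libraries. As for Scn8a, the library sham 1 was highest and sham 3 lowest of the operated ones. The gene fell by 0.58 on the log2 scale in SCI against naive (SE 0.16, edgeR adjusted p = 0.00911) and by 0.63 in sham against naive (SE 0.16, edgeR adjusted p = 0.00558).

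Scn7a encodes Nax, an atypical member that responds to the sodium concentration rather than to voltage and is known from glia, Schwann cells included, as well as from neurons. It had 393, 376 and 357 CPM in SCI libraries, 337, 344 and 355 CPM in sham libraries and 831, 868 and 850 CPM in naive libraries. Libraries of each group lay close together, with a coefficient of variation of 4.86% in SCI, 2.73% in sham and 2.17% in naive. The log2 change was -1.18 in SCI against naive (SE 0.07, edgeR adjusted p = 1.31e-07) and -1.30 in sham against naive (SE 0.07, edgeR adjusted p = 5.02e-08). Markers of Schwann cells moved in the same direction: 6 of 8 were called lower in SCI than in naive and 1 higher, where 24.6% of all genes were called lower and 23.9% higher. The summed level of these markers was 19344 to 23366 CPM in SCI libraries, 17839 to 22220 CPM in sham libraries and 30016 to 31805 CPM in naive libraries. Their part in the level of Scn7a was not tested. In bulk ganglia, fewer cells of a type and less RNA per cell cannot be told apart.

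The promoter windows of Scn9a and Scn7a, the alpha genes with the largest falls, are shown to set both genes side by side. They lie close to each other on chromosome 3 in the gene order, with Scn1a on the other side of Scn9a, and both are read from the minus strand. Each window runs from 250 bases before to 50 bases after the RefSeq start in assembly GRCr8, 5′ to 3′ along the gene, and capitals mark CG dinucleotides. The Scn9a window is chr3:71701328-71701627 and the Scn7a window chr3:71846235-71846534.
Scn9a: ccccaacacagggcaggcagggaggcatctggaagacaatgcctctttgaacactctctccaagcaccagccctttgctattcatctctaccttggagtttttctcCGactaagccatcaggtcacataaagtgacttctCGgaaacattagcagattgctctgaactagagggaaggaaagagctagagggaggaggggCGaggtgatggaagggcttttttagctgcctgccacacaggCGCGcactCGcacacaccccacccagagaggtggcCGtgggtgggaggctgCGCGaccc
Scn7a: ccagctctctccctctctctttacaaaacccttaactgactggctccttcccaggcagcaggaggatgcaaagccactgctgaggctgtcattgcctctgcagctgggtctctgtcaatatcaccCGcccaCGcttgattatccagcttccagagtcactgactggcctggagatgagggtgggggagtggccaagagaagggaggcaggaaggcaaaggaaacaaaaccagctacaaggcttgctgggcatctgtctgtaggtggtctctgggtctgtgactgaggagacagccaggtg
Both windows are 56.0% G and C, against a median of 51.7% over the 33469 windows of that length in the RefSeq table. The Scn9a window holds 9 CG dinucleotides and the Scn7a window 2, where the median is 7. The GC box GGGCGG, searched on both strands, is in the Scn7a window and not in the Scn9a window, and 33.1% of all windows hold it. These are descriptions of the windows, with no site called from them.

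The median log2 change of the alpha genes was -0.79 in SCI against naive and -0.83 in sham against naive, where that of all genes was 0.01 and 0.00. The libraries of all 6 alpha genes stood below the naive libraries without overlap, as did those of 31.9% of all genes in SCI against naive and 29.2% in sham against naive. The naive libraries share no label of batch with or apart from the others, and a batch holding only naive libraries cannot be told apart from surgery or injury.

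**Figure D2:**
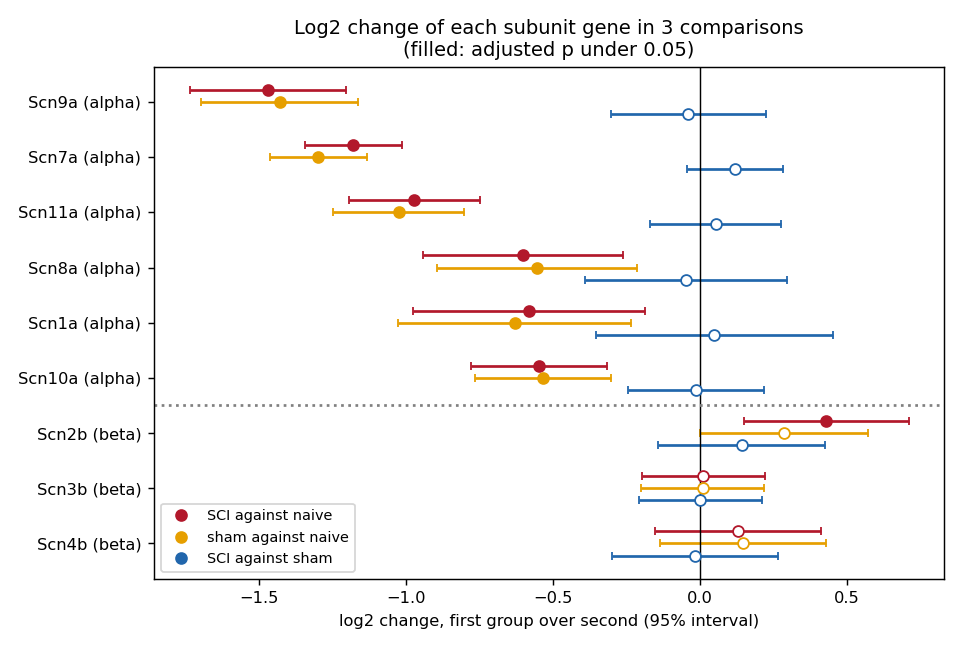
Fitted log2 change of each subunit gene (x axis, with 95% intervals) in SCI against naive, sham against naive and SCI against sham; filled points have an edgeR adjusted p under 0.05. All alpha genes are filled and left of 0 in both comparisons with naive, from -1.47 to -0.53, and no gene is filled in SCI against sham.

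Among the beta genes, Scn2b encodes a subunit that is tied to the alpha chain by a disulfide bond. It had 16.7, 16.8 and 15.9 CPM in SCI libraries, 17.3, 15.3 and 12.0 CPM in sham libraries and 11.4, 12.8 and 12.5 CPM in naive libraries. All SCI libraries stood above all naive libraries, while sham 3 lay within the naive range. Separation of SCI from naive was common, with 31.9% of all genes lower in SCI without overlap. The share that stood higher is not given here. Scn2b rose in SCI against naive with a log2 change of 0.43 (SE 0.11, edgeR adjusted p = 0.00747), while in sham against naive it had 0.29 (SE 0.12, edgeR adjusted p = 0.0554). Without sham 3 the log2 change in sham against naive was 0.43 (edgeR adjusted p = 0.00117), over a range of 0.00117 to 0.795 across 17 alternatives. Scaled to the sensory neuron markers, the change in SCI against naive was 0.27 and not called (adjusted p = 0.115, over a range of 0.000237 to 0.115), while relative to the median of all genes under that scaling it was 0.42.

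Scn4b encodes the other disulfide-linked beta subunit, known for its part in resurgent sodium current. Its levels were 715, 706 and 701 CPM in SCI libraries, 862, 717 and 567 CPM in sham libraries and 637, 672 and 631 CPM in naive libraries. The SCI libraries were nearly alike and stood above the naive libraries, and the sham libraries spread over a range wider than both. As for Scn2b, the share of all genes that stood higher without overlap is not given here, and 31.9% stood lower. Its log2 change was 0.13 in SCI against naive (95% interval -0.15 to 0.41, edgeR adjusted p = 0.377) and 0.15 in sham against naive (95% interval -0.14 to 0.43, edgeR adjusted p = 0.313), neither of which passed. Fitted on only the SCI and naive libraries, the change in SCI against naive was 0.12 (adjusted p = 0.0205), and without sham 3 the change in sham against naive was 0.30 (adjusted p = 0.00421). Over 17 alternatives the adjusted p ran from 0.0205 to 0.802 in SCI against naive and from 0.00421 to 0.874 in sham against naive.

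Scn3b encodes a beta subunit held to the alpha chain without a covalent bond. It had 95.7, 102 and 111 CPM in SCI libraries, 110, 108 and 89.5 CPM in sham libraries and 96.2, 108 and 102 CPM in naive libraries. The groups overlapped fully. Fitted log2 changes were 0.01 in SCI against naive (95% interval -0.20 to 0.22, edgeR adjusted p = 0.928) and 0.01 in sham against naive (95% interval -0.20 to 0.22, edgeR adjusted p = 0.940). The intervals leave room for a rise of up to 0.22, and their lower bounds of -0.20 lie above the fitted change of every alpha gene. With a t quantile of 6 degrees of freedom, the interval of Scn1a in SCI against naive, -0.97 to -0.19, overlaps that of Scn3b. This quantile makes the intervals wider than the edgeR p-values imply, so no conclusion is drawn from the overlap.

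Scn2b and Scn4b are neighbours on chromosome 8 in the same gene order, and their windows are shown as the pair of beta genes whose start sites the RefSeq table gives. The Scn2b window is chr8:54322133-54322432 and the Scn4b window chr8:54343623-54343922, both on the plus strand of GRCr8 and with CG dinucleotides in capitals as above.
Scn2b: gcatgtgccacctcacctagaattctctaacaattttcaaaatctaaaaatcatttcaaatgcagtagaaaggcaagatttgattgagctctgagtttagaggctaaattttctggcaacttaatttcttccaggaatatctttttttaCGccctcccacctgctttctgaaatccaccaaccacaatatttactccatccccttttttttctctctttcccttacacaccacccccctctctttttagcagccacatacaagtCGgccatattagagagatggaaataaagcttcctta
Scn4b: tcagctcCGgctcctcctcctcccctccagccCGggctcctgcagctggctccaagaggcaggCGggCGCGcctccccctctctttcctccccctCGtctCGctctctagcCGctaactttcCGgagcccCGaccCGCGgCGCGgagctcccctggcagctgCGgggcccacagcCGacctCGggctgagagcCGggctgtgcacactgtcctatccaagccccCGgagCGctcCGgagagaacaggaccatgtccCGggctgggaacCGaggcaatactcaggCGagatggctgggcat
The Scn2b window is 39.0% G and C and holds 2 CG dinucleotides, and the Scn4b window is 70.0% G and C and holds 24. In G and C share the windows rank at or above 10% and 91.7% of all windows. The core TGTGGT, of Runx factors, is in the Scn2b window, as in 17.3% of all windows. The TATA box TATAAA, which 14.2% of all windows hold, is in none of the 7 windows of the 9 genes that the table gives.

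Within each library, the mean log2 CPM of the 6 alpha genes minus that of the 3 beta genes was 0.68, 0.59 and 0.56 in SCI, 0.65, 0.57 and 0.68 in sham and 1.73, 1.68 and 1.67 in naive. Every operated library lay about a log2 unit below every naive library, and the operated groups overlapped. The difference between the mean log2 changes of alpha and beta genes was -1.08 in SCI against naive, -1.06 in sham against naive and -0.02 in SCI against sham. Since this is a value over chosen genes, no test is given for it. Summed CPM of the alpha genes was 1344 ± 18.8 in SCI, 1313 ± 134 in sham and 2586 ± 96.7 in naive (SD, n = 3 each). The beta genes summed to 827 ± 1.93 CPM in SCI, 833 ± 161 CPM in sham and 761 ± 27.7 CPM in naive (SD, n = 3 each).

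**Figure D3:**
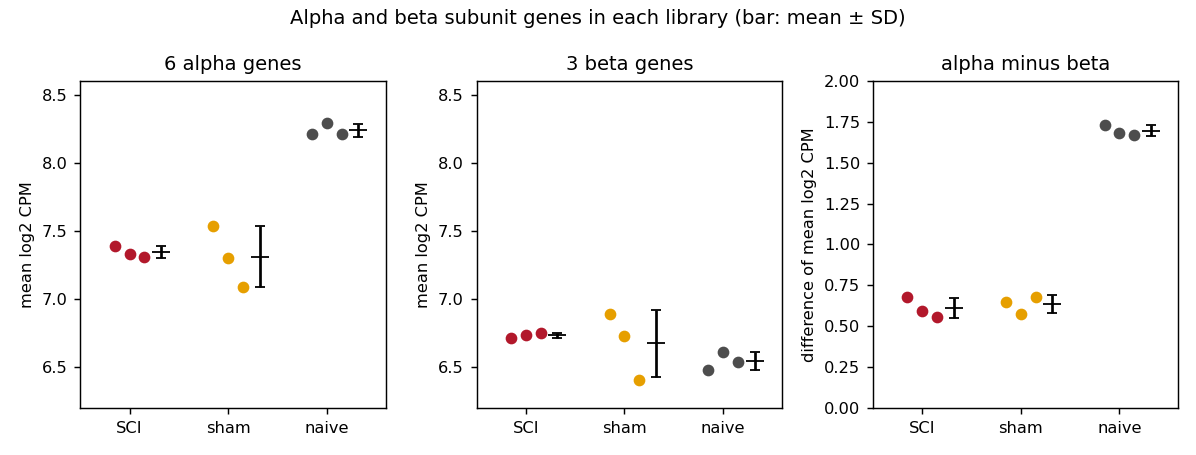
Mean log2 CPM of the 6 alpha genes, of the 3 beta genes, and alpha minus beta (y axes; the first pair do not start at 0) in each SCI, sham and naive library; dots are libraries and bars the mean ± SD of 3. Alpha minus beta lies at 0.56 to 0.68 in SCI, 0.57 to 0.68 in sham and 1.67 to 1.73 in naive.

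Genes of very large proteins moved the same way as the alpha genes. In a list of 53 such genes written by hand after the counts were at hand, with no sodium channel in it, 46 were tested. All 46 were called lower in SCI than in naive, with a median log2 change of -1.04, where 24.6% of all genes were called lower. In sham against naive 45 of 46 were called lower, with a median of -1.14, where 25.9% of all genes were. Examples are Dync1h1, the heavy chain of the dynein motor, at -1.22 (SE 0.12, edgeR adjusted p = 5.94e-06), and Ryr2, an intracellular calcium release channel, at -1.40 (SE 0.12, edgeR adjusted p = 1.99e-06) in SCI against naive. Transcript lengths were not used here, and the part of length in the alpha and beta difference was not tested.

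The lists of calcium channel pores and of small single-pass proteins were also written after the counts were at hand. Of 10 pore subunits of voltage-gated calcium channels, long chains of the same general plan, 6 were called lower and none higher in SCI against naive, with a median of -0.44, where 24.6% of all genes were called lower. Cacna1c had a log2 change of -0.78 (SE 0.07, edgeR adjusted p = 3.90e-06) and Cacna1b, the pore of N-type channels, -0.84 (SE 0.11, edgeR adjusted p = 6.13e-05). Of 14 tested small single-pass proteins with immunoglobulin domains, 3 were called higher and 4 lower in SCI against naive, with a median of -0.16, near the 23.9% higher and 24.6% lower of all genes. For sham against naive the counts were 7 lower of 10 pore subunits, and 3 higher and 5 lower of 14 single-pass proteins, where 24.7% of all genes were called higher and 25.9% lower.

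The alpha genes did not fall in equal measure. Of their summed counts in a library, Scn9a held 10.5% ± 0.551 in SCI, 11.03% ± 1.10 in sham and 15.2% ± 0.474 in naive (SD, n = 3 each). Scn10a held 33.6% ± 1.89 in SCI, 34.6% ± 1.23 in sham and 25.5% ± 0.371 in naive, and Scn7a held 27.9% ± 1.69 in SCI, 26.5% ± 3.31 in sham and 32.9% ± 0.526 in naive. For these genes the naive libraries did not overlap with the operated ones. Scn11a held 19.5% ± 1.56 in SCI, 19.3% ± 0.510 in sham and 19.9% ± 0.252 in naive, and its groups overlapped. These are shares of counts and set each gene against itself between groups.

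**Figure D4:**
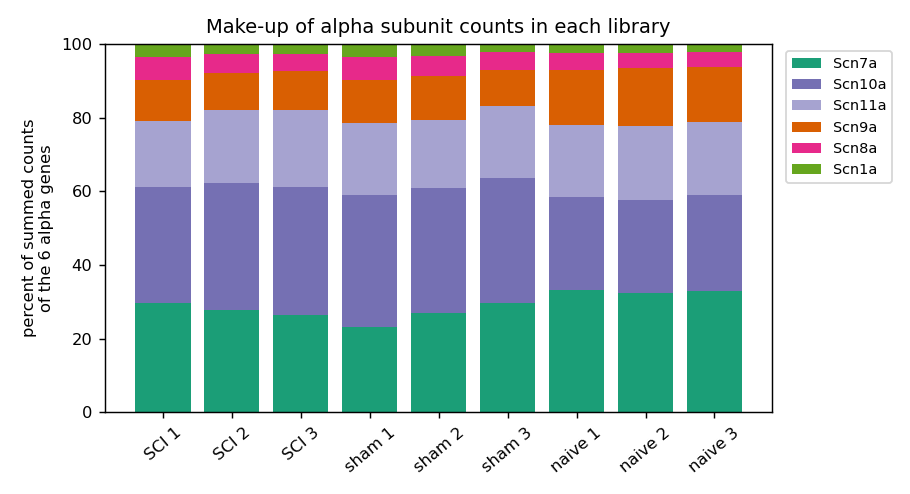
Percent of the summed counts of the 6 alpha subunit genes that each gene holds (y axis, 0 to 100) in each SCI, sham and naive library. The Scn9a part is 9.77% to 11.8% in the SCI and sham libraries and 14.8% to 15.7% in the naive libraries, and the Scn10a part is smaller in naive.

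Ratios within a library show the same unequal fall. The log2 ratio of Scn9a to Scn10a counts was -1.49, -1.77 and -1.75 in SCI, -1.64, -1.52 and -1.80 in sham and -0.75, -0.69 and -0.81 in naive. That of Scn11a to Scn10a was -0.78 ± 0.0468 in SCI, -0.85 ± 0.0449 in sham and -0.36 ± 0.0215 in naive (SD, n = 3 each). The ratio of Scn1a to Scn8a, by contrast, averaged -0.80 ± 0.0359 in SCI, -0.91 ± 0.114 in sham and -0.82 ± 0.0532 in naive, with overlapping groups. With 3 libraries a group, the smallest two-sided p an exact permutation test can give is 0.10, so none is given for single ratios.

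In SCI against sham, the comparison that sets cord injury against the operation alone, none of the 9 genes was called, nor was any other gene of those tested by edgeR's quasi-likelihood test (0%). Unadjusted p-values under 0.05 were found for 526 genes, or 3.16% of those tested, and for none of the 9. Limma-voom called 0 genes and DESeq2 8, none of them among the 9. Scn7a was the sole member whose libraries did not overlap, at 357 to 393 CPM in SCI libraries and 337 to 355 CPM in sham libraries, against 6.41% of all genes without overlap. Its log2 change was 0.12 (95% interval -0.04 to 0.28, edgeR adjusted p = 0.9999).

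Intervals show what these libraries could have hidden. For SCI against sham they ran from -0.30 to 0.22 for Scn9a, -0.24 to 0.22 for Scn10a, -0.17 to 0.27 for Scn11a, -0.39 to 0.30 for Scn8a and -0.35 to 0.45 for Scn1a. For the beta genes they ran from -0.14 to 0.43 for Scn2b, -0.21 to 0.21 for Scn3b and -0.30 to 0.27 for Scn4b. All are on the log2 scale, with a t quantile of 6 residual degrees of freedom. They are wider than the edgeR p-values imply. Differences between SCI and sham inside these 95% intervals remain compatible with the libraries. The bounds are not limits of detection, since a call also needs to pass the adjustment over 16627 genes.

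The coefficient of variation was larger in sham than in SCI for 8 of the 9 genes. None of the 9 was called in SCI against sham when any single sham library was left out. For 8 of the 9 genes sham 1 was the highest sham library and sham 3 the lowest, Scn7a being the exception with sham 3 highest. Scn7a varied by 4.86% in SCI and 2.73% in sham. The coefficient of variation was 14.4% in SCI and 29.2% in sham for Scn1a, 12.7% in SCI and 25.2% in sham for Scn8a, and 1.04% in SCI and 20.7% in sham for Scn4b. The median over all genes was 6.42% in SCI, 11.6% in sham and 5.63% in naive. The summed sensory neuron markers were 43787, 33822 and 29503 CPM in sham 1 to 3, in the same order as those 8 genes, and the Schwann cell markers were 17839, 19593 and 22220 CPM, in the order of Scn7a. Whether cell content accounts for the spread of the channel genes was not tested.

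Scaled to the sensory neuron markers in place of TMM, a choice made after seeing the data, the median log2 change of all genes was -0.15 in SCI against naive and -0.21 in sham against naive. The split of called genes was then 831 higher and 4139 lower in SCI against naive, compared with 3968 higher and 4091 lower with TMM. For sham against naive it was 860 higher and 5013 lower, compared with 4102 and 4305. All 6 alpha genes remained called lower in both comparisons, with Scn9a at -1.63 and Scn10a at -0.71 in SCI against naive, or -1.48 and -0.56 relative to the median of all genes. Under that scaling Scn3b and Scn4b turned to -0.15 and -0.03 in SCI against naive, or 0.00 and 0.12 relative to that median.

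Scn2a, Scn3a and Scn4a had negative log2 changes in both comparisons with naive, and the test called Scn2a and Scn3a in both. This pair, which encodes the alpha subunits Nav1.2 and Nav1.3 and is low in adult ganglia, lies side by side in the chromosome 3 gene cluster. Scn2a had 5.87 ± 0.416 CPM in SCI, 6.25 ± 0.283 CPM in sham and 13.1 ± 0.429 CPM in naive (SD, n = 3 each), with a log2 change of -1.16 in SCI against naive (SE 0.10, edgeR adjusted p = 2.03e-06). Scn3a, a subunit known to reappear in rat sensory neurons after cut of their axons, had 4.70, 5.54 and 5.82 CPM in SCI libraries, 6.10, 4.23 and 4.27 CPM in sham libraries and 9.52, 10.9 and 9.45 CPM in naive libraries. Its libraries were lower in both operated groups than in naive, and it fell by 0.91 on the log2 scale in SCI against naive (SE 0.15, edgeR adjusted p = 0.000243) and by 1.01 in sham against naive (SE 0.15, edgeR adjusted p = 0.000105).

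Scn4a, the channel of skeletal muscle, had log2 changes of -0.43 in SCI against naive (SE 0.20, edgeR adjusted p = 0.0876) and -0.29 in sham against naive (SE 0.20, edgeR adjusted p = 0.240). Neither passed, and naive 2, at 7.65 CPM, stood above the other naive libraries at 4.92 and 4.63 CPM. Without naive 2 the change in SCI against naive was -0.16 (adjusted p = 0.485) and without naive 3 it was -0.58 (adjusted p = 0.0416), the extremes of the p over 17 alternatives. It was also called without a low-count filter (adjusted p = 0.0497) and on only the SCI and naive libraries (adjusted p = 0.0479). Skeletal muscle markers summed to 50.4 to 76.7 CPM in SCI libraries, 104 to 121 CPM in sham libraries and 46.0 to 69.9 CPM in naive libraries.

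Most genes of proteins that hold sodium channels at nodes and initial segments were called lower in both operated groups. Of 11 tested genes of this list, 8 were called lower and none higher in SCI against naive (median log2 change -0.64), where 24.6% of all genes were called lower. For sham against naive 9 of the 11 were called lower (median -0.65), where 25.9% of all genes were. Ank3, ankyrin-G, which anchors the channels, had 162 ± 10.3 CPM in SCI, 152 ± 19.9 CPM in sham and 289 ± 8.93 CPM in naive (SD, n = 3 each; log2 change in SCI against naive -0.84, SE 0.09, edgeR adjusted p = 8.25e-06). Ank2, ankyrin-B, had a log2 change of -1.14 (SE 0.10, edgeR adjusted p = 1.83e-06) and the adhesion protein Nrcam -0.87 (SE 0.11, edgeR adjusted p = 3.26e-05). Gldn, gliomedin, which Schwann cells secrete to cluster channels at nodes, stood at -0.81 (SE 0.07, edgeR adjusted p = 1.66e-06). In SCI against sham these 4 genes had log2 changes of 0.09, 0.00, 0.02 and -0.02, and none of the 11 was called.

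**Figure D5:**
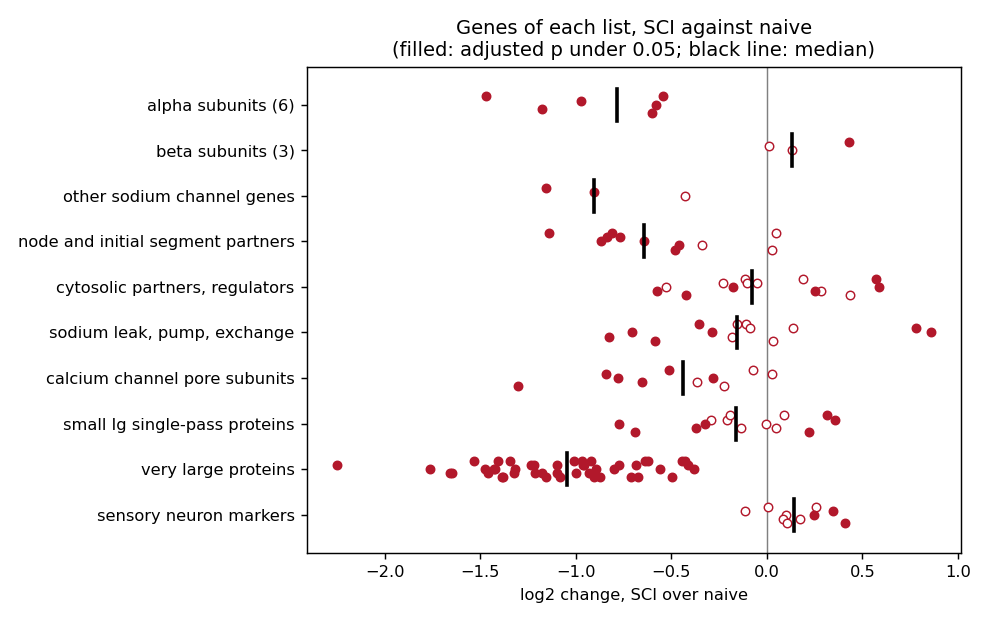
Log2 change in SCI over naive (x axis) of each tested gene of the sodium channel groups, related lists and sensory neuron markers; filled dots have an edgeR adjusted p under 0.05 and black lines are medians. Alpha subunits have a median of -0.79 and very large proteins one of -1.04, while sensory neuron markers have one of 0.14.

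Of 14 genes of cytosolic partners and regulators of the channel, 3 were called higher and 3 lower in SCI against naive (median log2 change -0.08), near the 23.9% higher and 24.6% lower of all genes. Against naive, sham had 5 of them called higher and 4 lower (median -0.03), where 24.7% of all genes were called higher and 25.9% lower. The ubiquitin ligases Nedd4 and Nedd4l, relatives that mark membrane channels for removal, had log2 changes of -0.57 (SE 0.07, edgeR adjusted p = 3.69e-05) and -0.42 (SE 0.08, edgeR adjusted p = 0.000811) in SCI against naive. S100a10 (p11), a small protein that brings Nav1.8 to the membrane, had a log2 change of 0.57 (SE 0.09, edgeR adjusted p = 0.000197), or 0.41 when scaled to neuron markers, with an adjusted p of 0.0593, the highest over 17 alternatives, and 0.56 relative to the median of all genes under that scaling. Calm3, a calmodulin gene, had 0.59 (SE 0.08, edgeR adjusted p = 4.70e-05).

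Of 13 tested genes of the sodium leak channel, the sodium pump and the exchangers, 2 were called higher and 5 lower in SCI against naive (median log2 change -0.16), where 23.9% of all genes were called higher and 24.6% lower. Between sham and naive 2 were called higher and 4 lower in sham (median -0.14), where 24.7% of all genes were called higher and 25.9% lower. Nalcn, the pore of the leak channel, had a log2 change of -0.82 (SE 0.11, edgeR adjusted p = 4.90e-05), and its partner Unc79 one of -0.71 (SE 0.08, edgeR adjusted p = 2.02e-05). Fxyd2 and Fxyd7, small membrane regulators of the sodium pump, had 0.78 (SE 0.08, edgeR adjusted p = 1.01e-05) and 0.86 (SE 0.08, edgeR adjusted p = 2.50e-06). None of the 13 was called in SCI against sham.

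Of 10 general sensory neuron markers, 3 were called higher and none lower in SCI against naive (median log2 change 0.14), where 23.9% of all genes were called higher and 24.6% lower. Uchl1, a neuronal ubiquitin hydrolase, stood at 0.41 (SE 0.09, edgeR adjusted p = 0.00245). Of 8 nociceptor markers, only the receptor gene Ret was called, at -0.39 (SE 0.11, edgeR adjusted p = 0.00935), and of 6 tested markers of large neurons only Pvalb, parvalbumin, at 0.87 (SE 0.07, edgeR adjusted p = 1.21e-06). Single marker genes of other cell types differed between naive and SCI ganglia too, given here as the gene with the smallest p of a list. The myelin gene Pmp22 of Schwann cells had -0.87 (SE 0.09, edgeR adjusted p = 9.44e-06), Fabp7 of satellite glia 1.23 (SE 0.13, edgeR adjusted p = 7.24e-06), Cd74 of macrophages 0.85 (SE 0.11, edgeR adjusted p = 5.30e-05) and Col1a1 of fibroblasts -0.98 (SE 0.14, edgeR adjusted p = 0.000116).

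Over these marker lists, 3 of 6 satellite glia genes were called higher and 1 lower in SCI against naive, 4 of 6 macrophage genes higher, 3 of 5 fibroblast genes lower and none of 7 skeletal muscle genes. Of all genes, 23.9% were called higher and 24.6% lower in that comparison. In sham against naive 6 of 7 skeletal muscle genes were called higher, where 24.7% of all genes were. Acta1, skeletal muscle actin, stood at 0.98 there (SE 0.15, edgeR adjusted p = 0.000129). Satellite glia markers summed to 6575 to 7764 CPM in SCI libraries, 6757 to 8824 CPM in sham libraries and 3845 to 3918 CPM in naive libraries. The part of these cells in the level of any channel gene was not tested.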

How the data were processed

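RNA of 9 rat DRG libraries was sequenced as paired ends. Per the labels' protocols, RNA came from an RNeasy Mini Kit and libraries from the TruSeq RNA V2 kit, which keeps no strand information, so a gene cannot be told apart from an antisense gene that overlaps it. The submitters' processing notes name FastQC, Trimmomatic, TopHat2, HTSeq and DESeq2 without versions. Genome build and annotation are likewise not given in the sources used here. Raw counts were deposited by the authors, as whole numbers of reads for each gene without normalization. Multiply mapped reads and the length of each annotated gene can affect such counts.

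Groups came from the treatment label. Counts were tested with edgeR 4.0.16 (quasi-likelihood test, TMM scaling, filterByExpr with the groups, a mean for each group, all 9 libraries, 6 residual degrees of freedom) in R 4.3.3, with Benjamini-Hochberg adjustment over 16627 genes and calls at an adjusted p under 0.05. The standard error is the log2 change divided by the square root of its F statistic. The 95% intervals use a t quantile with 6 degrees of freedom and are wider than the edgeR p-values imply. Values of log2 CPM had a prior count of 2. The test was checked on simulated counts. The members and lists were chosen with earlier results of these data known. Of 190 listed symbols, 178 matched the table. Named beside the 9 genes were 3 other family members (some genes of the family are not reported here), the 4 genes with the smallest p in SCI against naive of each functional list and the 1 of each marker list; genes of the lists written after the counts were at hand were picked as examples after their values were seen. Promoter windows and gene order came from RefSeq tables of GRCr8, used for sequence and names only. Alternatives were RLE scaling, no filter and a strict filter (1 CPM in all libraries), DESeq2 1.42.0, limma-voom (limma 3.58.1), a fit on only 2 groups, a block for the replicate number, each library left out and, chosen after seeing the data, scaling to sensory neuron markers.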

Additional observations from a re-analysis of the deposited data

How the results depend on the processing

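All 6 alpha genes were called lower in SCI against naive and in sham against naive, and none in SCI against sham, under all 17 alternatives run. The difference between the mean log2 changes of alpha and beta genes stayed between -1.12 and -1.05 in SCI against naive, -1.08 and -1.03 in sham against naive and -0.06 and 0.00 in SCI against sham. The count of beta genes called higher in SCI against naive, 1, was 2 with only the 2 groups compared and 0 with neuron marker scaling. That in sham against naive, 0, was 1 without a low-count filter and ran from 0 to 2 when single libraries were left out. Members that were not called changed sign as follows. Neuron marker scaling moves all genes together, by a median of -0.15 in SCI against naive, -0.21 in sham against naive and 0.049 in SCI against sham, and for the other settings the cause was not tested. Scn3b in SCI against sham was -0.0077 with RLE scaling and -0.0066 with DESeq2, and ran from -0.092 to 0.057 when single libraries were left out. In SCI against naive Scn3b was -0.0033 with the strict filter, -0.00023 with only 2 groups and -0.15 with neuron marker scaling, and ran from -0.047 to 0.062 with a library left out. In sham against naive it was -0.0071 with the strict filter and -0.21 with neuron marker scaling, and ran from -0.056 to 0.11. Scn4b in SCI against sham was 0.0081 with limma-voom and 0.060 with neuron marker scaling, and ran from -0.16 to 0.14. With neuron marker scaling it was -0.031 in SCI against naive and -0.091 in sham against naive, or 0.12 in both relative to that median. In sham against naive it ran from -0.018 to 0.30 with a library left out. In SCI against sham, Scn8a, Scn9a and Scn10a were 0.040, 0.033 and 0.050 with neuron marker scaling, or -0.0093, -0.017 and 0.0011 relative to the median of all genes. With libraries left out they ran from -0.21 to 0.17, -0.18 to 0.082 and -0.090 to 0.10, Scn1a from -0.16 to 0.28 and Scn11a from -0.0062 to 0.15. Deviations of same-numbered libraries of different groups had r from -0.09 to 0.12 over 9 pairs, and those of other-numbered ones from -0.13 to 0.16 over 18 pairs. No sign of pairing by number was seen. Deviations from means of 3 libraries cannot exclude it. With the replicate number as a block, 7848 genes were called in SCI against naive, 8153 in sham against naive and 0 in SCI against sham, and the member counts stayed at 6 alpha genes lower in both comparisons with naive. Without sham 3, 22 genes were called in SCI against sham, and without a filter 11. The protein-length offset and the levels per length were not run, since no lengths were in the tables used here.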

Other observations

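Genes whose log2 CPM over the 9 libraries was most like that of a channel gene were found by Pearson's r, given here as a description, since the libraries fall into naive and operated ones. Scn8a was closest to Kcna1, a potassium channel of the parts flanking the node (r = 0.998). Scn3b was closest to Ankrd6 (r = 0.961) and next to P2rx3, an ATP-gated channel of nociceptors (r = 0.953). For the other alpha genes the closest were Dennd1b for Scn1a, Cpsf6 for Scn7a, Tmem2 for Scn9a, Rn60_15_0408.6 for Scn10a and Vom2r44 for Scn11a. For the other beta genes they were Pip4k2b for Scn2b and Add2 for Scn4b. Of 16618 genes, 1163 had r over 0.95 with Scn7a, 1068 with Scn9a, 607 with Scn11a, 251 with Scn8a, 212 with Scn1a and 200 with Scn10a. For the beta genes, 24 had it with Scn4b, 12 with Scn2b and 2 with Scn3b.

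The nearest tested genes of other families in the GRCr8 order did not all move with the channel genes in SCI against naive. On either side of Scn1a, Scn9a and Scn7a on chromosome 3, Ttc21b, a ciliary transport gene, had a log2 change of -0.46 (edgeR adjusted p = 0.000397), and Xirp2, a muscle gene, -0.33 (adjusted p = 0.300). Beside the chromosome 8 cluster of Scn10a and Scn11a, Exog had 0.21 (adjusted p = 0.0543) and Wdr48 -0.06 (adjusted p = 0.478). Slc4a8, on one side of Scn8a, had -0.75 (adjusted p = 0.00701), and Acvrl1, on the other side, 0.47 (adjusted p = 0.0138). Gramd1b and Zfp202, on either side of Scn3b, had 0.25 (adjusted p = 0.00899) and -0.20 (adjusted p = 0.137). Beside the pair Scn2b and Scn4b, Mpzl3 had -0.32 (adjusted p = 0.00774) and Tmprss4 0.42 (adjusted p = 0.359).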
